A study of Homo sapiens with 4 samples.

Results

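CXCR4, CXCL12 and ACKR3 are the receptor, the ligand and the scavenging receptor of a chemokine axis, and their transcripts were followed in Huh-7 cells, an established human line from a liver cancer (hepatocellular carcinoma), with and without transforming growth factor beta (TGF-beta). All probe sets that the platform's annotation assigns to these 3 genes were taken, with CXCR7 read as the older symbol of ACKR3. This gave 6 probe sets of 19724 that name 1 gene, 3 of CXCR4, 2 of CXCL12 and 1 of ACKR3, and so 3 of 12165 genes. There were 4 Affymetrix arrays, 2 from untreated cultures and 2 from cultures given TGF-beta and harvested after 48 h. That time is given for the treated cultures only. Both groups are the same line in the same medium with 10% heat-inactivated bovine serum, so serum factors were present in the untreated cells too. The sources used here do not give the dose. Nothing says that arrays 1 and 2 of a group came from separate cultures, so the p-values reflect no more than the spread between arrays, which may be technical. The axis was chosen by the measured difference of CXCR4 between the groups on these same arrays, so the differences of the 3 genes between the groups are a description and carry no test.

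CXCL12, also called SDF-1, is a secreted chemokine made mainly by stromal cells, and it is held near the cells that make it by heparan sulfate chains. CXCR4 is a seven-transmembrane receptor that answers CXCL12 through inhibitory G proteins and directs the migration and homing of leukocytes, stem cells and tumour cells. ACKR3 binds the same ligand, does not couple to G proteins in the usual way, recruits arrestin and removes CXCL12 from the surroundings. In the liver, CXCL12 is known mainly from stromal, bile duct and endothelial cells, and CXCR4 from infiltrating leukocytes and from tumour cells.

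The 250 bases before the annotated start of the receptor gene and of the ligand gene are shown because the receptor's readings separated by group and the ligand's did not. The sequences are from RefSeq (GRCh38.p14), 5′ to 3′ on the strand of the gene, and 2 of the 3 genes matched the promoter table. For CXCR4, which has 3 starts in that table, the window lies before the most upstream start, at chr2:136118150-136118399 on the minus strand. The CXCL12 window is chr10:44385098-44385347, also on the minus strand. Capitals mark every match, on either strand, to the motifs searched, which were the NRF1 core CGCATGCG, the hypoxia response cores ACGTG and GCGTG, the SMAD box CAGAC, the palindromic SMAD site GTCTAGAC and the TATA box TATAAAA.
CXCR4: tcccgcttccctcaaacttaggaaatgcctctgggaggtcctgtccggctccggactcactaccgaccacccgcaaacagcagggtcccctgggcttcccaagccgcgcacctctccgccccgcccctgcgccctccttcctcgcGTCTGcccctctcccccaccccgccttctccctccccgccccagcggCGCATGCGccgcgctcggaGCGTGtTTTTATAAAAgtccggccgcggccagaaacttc
CXCL12: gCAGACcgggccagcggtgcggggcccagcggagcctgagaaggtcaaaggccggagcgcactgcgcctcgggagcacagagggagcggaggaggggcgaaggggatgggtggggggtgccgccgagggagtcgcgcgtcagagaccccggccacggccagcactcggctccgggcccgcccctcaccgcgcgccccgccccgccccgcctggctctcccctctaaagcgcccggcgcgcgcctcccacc
The CXCR4 window holds the NRF1 core 58 to 51 bases before the start, a hypoxia response core (GCGTG) 39 to 35 bases before it and a TATA box 30 to 24 bases before it, the last overlapped by a match on the opposite strand. The SMAD box lies on the opposite strand, 105 to 101 bases before the start. Of 35116 RefSeq promoter windows of this length, 1.73% hold the NRF1 core, 4.18% the TATA box, 32.2% the core GCGTG, 18.5% the core ACGTG, 38.0% the SMAD box and 0.182% the palindromic SMAD site, which neither window holds. A hypoxia response core in either form is present in 43.2% of those promoter windows. The CXCL12 window holds a SMAD box 249 to 245 bases before the start and no other of these motifs. A match of letters is a description and not evidence of binding.

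Before the members, the arrays themselves were compared. On a linear scale, the median intensity over all 22215 probe sets lay between 50.1 and 51.0 on the 4 arrays. Of 12165 genes, 149 (1.22%) passed an adjusted p under 0.05 (limma, Benjamini-Hochberg), 80 higher and 69 lower. The line's own products AFP and ALB were near the top of the intensity range, with ALB between 33581 and 35746 on the 4 arrays. Of 14 measured hepatocyte markers 1, TAT, had a mean below the arrays' median (21.5 to 27.2). The pan-leukocyte marker PTPRC lay between 28.3 and 31.7, close to the arrays' lower quartiles of 28.8 to 29.2. Of 15 measured leukocyte markers 12 had a mean below the median. The brighter ones were LCP1 (291 to 566), CD3D (154 to 285) and CD14 (75.4 to 157).

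CXCR4 transcript was higher after TGF-beta on all of its probe sets. Probe set 217028_at, the brightest, read 71.7 and 76.6 untreated and 227 and 253 after TGF-beta. Both treated arrays were at least 2.97 times either untreated array, and the arrays of each group lay close together. In RNA from whole cultures, more cells with the transcript and more transcript per cell cannot be told apart. On the log2 scale the means were 6.21 ± 0.07 and 7.91 ± 0.11 (SD, n = 2 each), a difference of 1.69 ± 0.11 (SE), or 3.24-fold. In brightness CXCR4 moved from just above the median of all probe sets towards, but not past, the upper quartile, which lay at intensities of 305 to 308.

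The other CXCR4 probe sets gave smaller differences. Probe set 211919_s_at read 70.6 and 63.8 untreated and 98.7 and 128 with TGF-beta, a log2 difference of 0.75 ± 0.15 (SE), or 1.68-fold. Probe set 209201_x_at read 54.0 and 44.8 against 81.9 and 132, a log2 difference of 1.08 ± 0.22 (SE), or 2.12-fold. On each of these the groups did not overlap, TGF-beta array 2 was the higher of the treated arrays, and the treated arrays differed from each other by 0.38 and 0.69 on the log2 scale, against 0.15 for 217028_at. The suffixes _s and _x mark probe sets that can match several transcripts or other sequences.

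Of the other CXCR4 probe sets, 211919_s_at diverged from 217028_at mainly on the treated arrays, and 209201_x_at did so less clearly. The log2 gap from 211919_s_at to 217028_at, of which only the change between arrays can be read, was 0.02 and 0.26 on the untreated arrays and 1.20 and 0.98 on the treated ones. The gap from 209201_x_at went from 0.41 and 0.77 to 1.47 and 0.93. The mean of the 3 probe sets gave a log2 difference of 1.17 for the gene, so the size of the CXCR4 response depended on the probe set by up to 0.95 on the log2 scale.

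**Figure D1:**
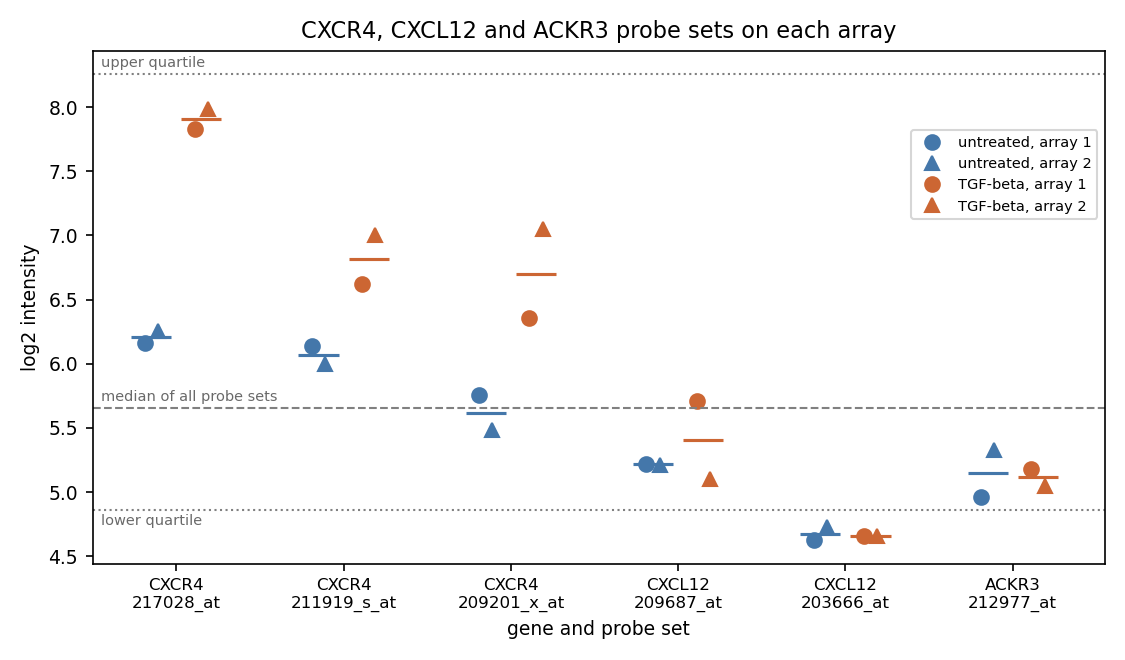
Log2 intensity (vertical axis) of the 6 probe sets of CXCR4, CXCL12 and ACKR3 (horizontal axis) on each of the 4 arrays, with untreated arrays in blue, TGF-beta arrays in orange and bars at the group means. The groups are apart on all 3 CXCR4 probe sets, widest on 217028_at (6.21 against 7.91), and overlap on the probe sets of CXCL12 and ACKR3, which lie near or below the median of all probe sets (dashed line; dotted lines are the quartiles).

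CXCL12, the ligand, was dim on both of its probe sets, and its groups overlapped. Probe set 209687_at read 37.2 and 37.1 untreated and 52.4 and 34.3 after TGF-beta. TGF-beta array 1 was above both untreated arrays and TGF-beta array 2 below both, so the log2 difference of 0.19 ± 0.19 (SE) was no larger than its error. Without TGF-beta array 1 it was -0.12, and without TGF-beta array 2 it was 0.49. Probe set 203666_at read 24.7 and 26.4 against 25.2 and 25.2, with a difference of -0.02 ± 0.11 (SE), and lay under the lower quartile of all probe sets on all 4 arrays.

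ACKR3, the scavenging receptor, had a single dim probe set. Probe set 212977_at read 31.2 and 40.2 untreated and 36.3 and 33.1 with TGF-beta, a log2 difference of -0.03 ± 0.14 (SE). The treated arrays lay between the untreated ones, and all 4 readings were under the median of their array. Leaving out untreated array 1 gave -0.22 and leaving out untreated array 2 gave 0.15. The deposited table holds no detection calls, so for CXCL12 and ACKR3 a low level cannot be told from the background of the array.

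Of the 6 probe sets, 3 had both treated arrays above both untreated arrays, all of them of CXCR4, where 22.6% of all 19724 probe sets did so. At the gene level 1 of the 3 genes, CXCR4, was among the 1.22% called, and at the probe set level 1 of 6, 217028_at, where 0.887% were called. The genes were chosen with this contrast known, and nothing is read from these counts. Without TGF-beta array 1 the log2 difference of 217028_at was 1.77 and without TGF-beta array 2 it was 1.62. In either fit limma called 0 of 12165 genes (1326 and 1563 had p under 0.05 before adjustment).

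**Figure D2:**
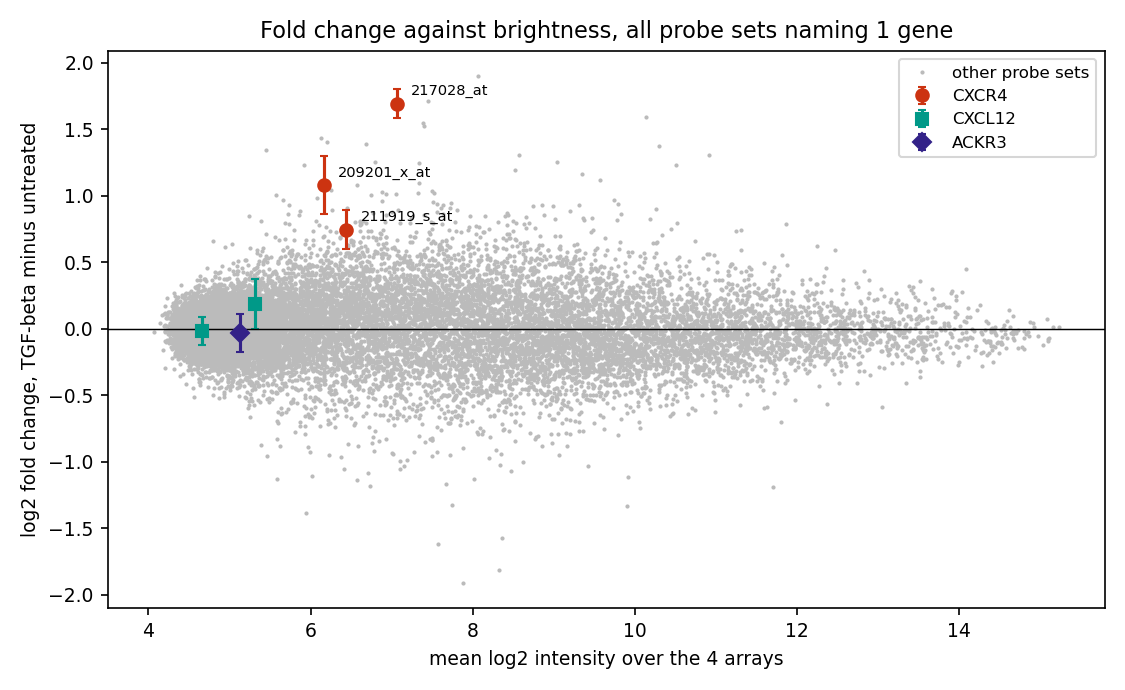
Log2 fold change, TGF-beta minus untreated (vertical axis), against mean log2 intensity over the 4 arrays (horizontal axis) for the 19724 probe sets that name 1 gene, with SE bars on the members. CXCR4 217028_at (1.69) stands at the upper edge of the cloud, the other CXCR4 probe sets (1.08 and 0.75) lie lower, and CXCL12 and ACKR3 lie within the dim end around 0.

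The genes that act with the axis were described from 8 lists of 157 genes, of which 141 were measured. In the fit across all genes 0 of the 141 were called (limma; before adjustment, 12 higher and 12 lower at p under 0.05). Over all genes 1.22% were called, and 18% had a p under 0.05 before adjustment, 9.35% higher and 8.6% lower. Their median log2 fold change was 0.02, against -0.01 over all genes. The largest value among them was 0.80, against 1.69 for CXCR4.

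Among other ligands and co-receptors, 0 of 7 measured genes were called (before adjustment, 1 higher and 1 lower at p under 0.05; list median 0.02). ADM, the peptide adrenomedullin, which ACKR3 also takes up, read 350 and 300.2 untreated and 539 and 481 with TGF-beta, a log2 fold change of 0.65 ± 0.12 (SE) with an adjusted p of 0.0553 in limma. Its groups did not overlap, and without untreated array 1 it had 0.76 and without untreated array 2 0.54. Without TGF-beta array 1 it had 0.57 and without TGF-beta array 2 0.73. MIF, a cytokine that binds CXCR4, was bright, at 4287 and 4144 against 3814 and 3801, with a log2 fold change of -0.15 ± 0.10 (SE, limma adjusted p = 0.520). CD74, the co-receptor of MIF, read 26.6 and 32.6 against 28.7 and 35.2, and CXCL11, an interferon-induced ligand of ACKR3, had a log2 fold change of -0.09 ± 0.12 (SE). Both were as dim as the lower part of each array, and their groups overlapped.

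Most other chemokine receptors were dim. Of 19 measured, 0 were called (before adjustment, 0 higher and 1 lower at p under 0.05), 17 had a mean below the arrays' median, and their log2 fold changes ran from -0.28 to 0.23 with a median of 0.01. The smallest p was that of CCR8, a receptor of T cells, which read 33.0 and 31.1 against 27.4 and 26.6, a value of -0.25 ± 0.11 (SE, limma adjusted p = 0.278). CXCR4 thus had a larger value than each of the other chemokine receptors measured, a difference that follows from how it was chosen.

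Heparan sulfate carriers and enzymes, which hold CXCL12 at cell surfaces, had 0 calls among 18 (before adjustment, 3 higher and 0 lower at p under 0.05; median 0.08). SDC1, the cell surface proteoglycan syndecan 1, read 89.7 and 88.2 untreated and 130 and 155 with TGF-beta, with a log2 fold change of 0.67 ± 0.12 (SE) and a limma adjusted p of 0.0533. Without untreated array 1 it had 0.68 and without untreated array 2 0.66. Without TGF-beta array 1 it had 0.80 and without TGF-beta array 2 0.54. Its other probe set gave 0.04, and the mean of its probe sets 0.35, which was not called. SDC4, another syndecan, had 0.11 ± 0.10 (SE), and GPC3, the glypican typical of hepatocellular carcinoma, 0.19 ± 0.12 (SE; 0.09 to 0.29 with 1 array left out).

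Proteases that trim CXCL12 had 0 calls among 12 (before adjustment, 1 higher and 2 lower at p under 0.05; median -0.05). CPN1, the catalytic subunit of carboxypeptidase N, a liver-made plasma enzyme that removes the last residue of CXCL12, read 117 and 158 untreated and 259 and 218 after TGF-beta. Its log2 fold change was 0.80 ± 0.16 (SE, limma adjusted p = 0.0601). Without untreated array 2 it was 1.02 and without untreated array 1 0.59. Without TGF-beta array 1 it was 0.68 and without TGF-beta array 2 0.93. DPP4, the membrane peptidase that inactivates CXCL12, was bright, at 1618 and 1812 against 1334 and 1555, with a value of -0.25 ± 0.13 (SE, limma adjusted p = 0.347). The other 2 DPP4 probe sets gave -0.50 and -0.15.

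G proteins and RGS regulators, which carry and shorten the CXCR4 signal, had 0 calls among 22 (before adjustment, 3 higher and 3 lower at p under 0.05; median 0.06). RGS10, a GTPase-activating protein that shortens G protein signals, read 103 and 92.9 untreated and 68.6 and 59.8 with TGF-beta, with a log2 fold change of -0.61 ± 0.12 (SE, limma adjusted p = 0.0568). Its other 2 probe sets gave -0.11 and -0.0014. GNAI2, an inhibitory G protein subunit, had 0.24 ± 0.12 (SE, limma adjusted p = 0.333). Without untreated array 2, RGS10 had -0.69, and without untreated array 1 it had -0.54. Without TGF-beta array 1 it had -0.71, and without TGF-beta array 2 -0.51.

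Receptor kinases, arrestins and sorting proteins, which switch off and degrade CXCR4, had 0 calls among 16. Before adjustment 0 were higher and 1 lower at p under 0.05. Of the 16, 5 had a positive value, where 48.6% of all genes did, and the median was -0.07. GRK5, a receptor kinase, read 191 and 209 untreated and 144 and 145 with TGF-beta, a log2 fold change of -0.47 ± 0.11 (SE, limma adjusted p = 0.0795), and its other probe set gave -0.28. GRK6, another receptor kinase, had 0.29 ± 0.13 (SE), and 0.14 to 0.44 with 1 array left out. ITCH, the ubiquitin ligase that sends CXCR4 to lysosomes, had -0.16 ± 0.11 (SE), and -0.25 to -0.07 with 1 array left out. The other 3 probe sets of GRK6 gave 0.24 to 0.42, and the other 2 of ITCH -0.42 and -0.27. ARRB2, the arrestin also named in advance, was not analysed here.

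Downstream kinases and motility effectors had 0 calls among 36 (before adjustment, 1 higher and 4 lower at p under 0.05; median 0.04), with values from -0.36 to 0.30. The smallest p was that of PIK3CB, a catalytic subunit of phosphoinositide 3-kinase, at -0.36 ± 0.11 (SE, limma adjusted p = 0.158).

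Transcription factors and oxygen sensors linked to CXCR4 or CXCL12 had 0 calls among 11. Before adjustment 3 were higher and 0 lower at p under 0.05. Of the 11, 9 had a positive value, where 48.6% of all genes did, and the median was 0.16. EGLN1, the prolyl hydroxylase that marks HIF-1 alpha for destruction, read 660 and 975 untreated and 1206 and 1137 after TGF-beta (0.54 ± 0.18, SE, limma adjusted p = 0.175). YY1, a zinc finger factor that represses the CXCR4 promoter, read 1033 and 1566 against 1865 and 1662 (0.47 ± 0.19, SE, limma adjusted p = 0.260), and its other 3 probe sets gave -0.02 to 0.36. In EGLN1 and YY1 untreated array 1 was far below untreated array 2, and the values depended on which of the untreated arrays was kept. Without untreated array 2 they were 0.83 and 0.77, and without untreated array 1 they were 0.26 and 0.17. Without TGF-beta array 1 they were 0.50 and 0.39, and without TGF-beta array 2 they were 0.59 and 0.55. HIF1A, the oxygen-regulated activator of both CXCR4 and CXCL12, was among the bright transcripts, at 7714 and 8263 against 7003 and 7853, and its groups overlapped (-0.11 ± 0.11, SE).

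**Figure D3:**
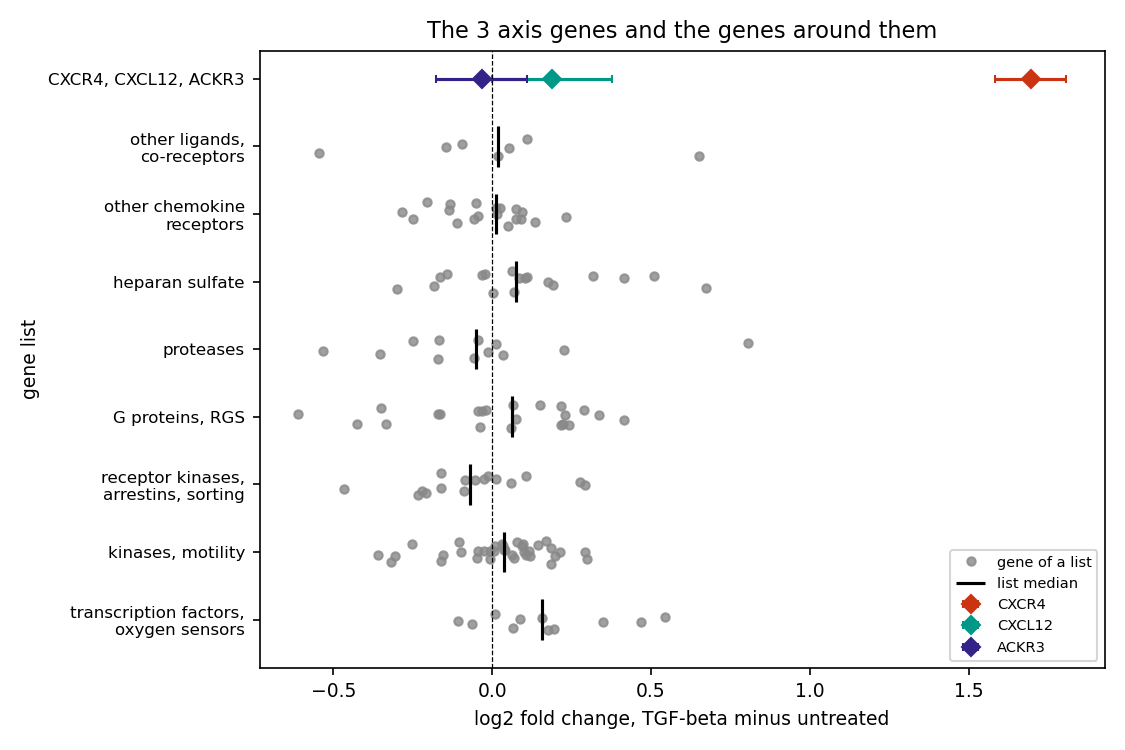
Log2 fold change, TGF-beta minus untreated (horizontal axis), of CXCR4, CXCL12 and ACKR3 (top line, brightest probe set of each, with SE bars) and of the 141 measured genes of the 8 lists (grey points, with black bars at the list medians). CXCR4 stands at 1.69, while the listed genes lie between -0.61 and 0.80 and their medians between -0.07 and 0.16.

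Markers of other cell types were read beside CXCR4, since leukocytes carry that receptor. Among 15 measured leukocyte markers, CD14, a co-receptor for bacterial lipopolysaccharide that hepatocytes also make, rose 2.005-fold from intensities of 75.6 and 75.4 to 146 and 157 (limma adjusted p = 0.0167). LCP1, an actin-bundling protein of blood cells that many tumour lines also express, fell by 0.78 on the log2 scale (limma adjusted p = 0.0403), and 13 did not pass. Before adjustment 1 was higher and 2 lower at p under 0.05, the other of these being CD3D, a subunit of the T cell receptor complex, which read 285 and 204 against 154 and 163 (limma adjusted p = 0.109). The summed intensity of the leukocyte list was 1188 to 1320 untreated and 968 to 1055 with TGF-beta. Without LCP1, a choice made after seeing the data, it was 656 to 754 and 677 to 707, and without LCP1 and CD3D 452 to 468 and 522 to 544, so the direction of the sum depended on these genes. Both groups are cultures of an established line, Huh-7, and the part of other cells in the CXCR4 values was not tested. None of these markers is listed at 0 (0 of 15), and 12 had a mean below the arrays' median. Endothelial markers had 0 calls among 9 (before adjustment, 0 higher and 1 lower at p under 0.05) and summed to 273 to 277 and 269 to 273. Of 12 fibroblast and stellate markers 1 was called, PDGFRA, a growth factor receptor, at 1.69-fold higher (limma adjusted p = 0.0394). The other PDGFRA probe set gave a log2 fold change of -0.14. Before adjustment 1 was higher and 2 lower at p under 0.05, the latter DCN (decorin) at -0.53 and COL1A1 (a type I collagen chain) at -0.44. The other 3 probe sets of DCN gave -0.19 to -0.003, and the other 3 of COL1A1 -0.15 to 0.16. Of the 12 markers 5 had a positive value, where 48.6% of all genes did, and their median was -0.11. That list summed to 7398 to 7916 untreated and 7711 to 8141 with TGF-beta, most of it from LUM. This 1 marker read 7184 and 6692 untreated and 6777 and 7292 with TGF-beta, while 9 of the 12 had a mean below the arrays' median. Of 14 measured hepatocyte markers 2 were called higher, APOA1 and CYP3A7, and 1 lower, TTR. Before adjustment 3 were higher and 1 lower at p under 0.05. Over all genes 1.22% were called, and before adjustment 9.35% were higher and 8.6% lower.

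The genes whose profile over the 4 arrays was most like that of CXCR4 were sought by the root mean square distance between log2 values, each gene centred on its own mean. The nearest were DPYSL3 (a cytoskeleton-associated protein, distance 0.15), TUBA1A (an alpha-tubulin, 0.18), CYP3A7 (a cytochrome P450 of fetal liver, 0.20), HABP2 (a plasma protease, 0.21), CXCL1 (0.23) and CXCL2 (0.24), the last being chemokines that attract neutrophils. DPYSL3 read 43.6 and 41.5 untreated and 116 and 115 with TGF-beta, and TUBA1A 651 and 640 against 2172 and 1742. With only 4 arrays in 2 groups this measure finds mostly genes with a rise of similar size, and the log2 fold changes of the 6 ran from 1.25 to 1.90. CXCL12 and ACKR3 had distances of 0.80 and 0.88 to CXCR4, beside a median of 0.86 over all genes.

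**Figure D4:**
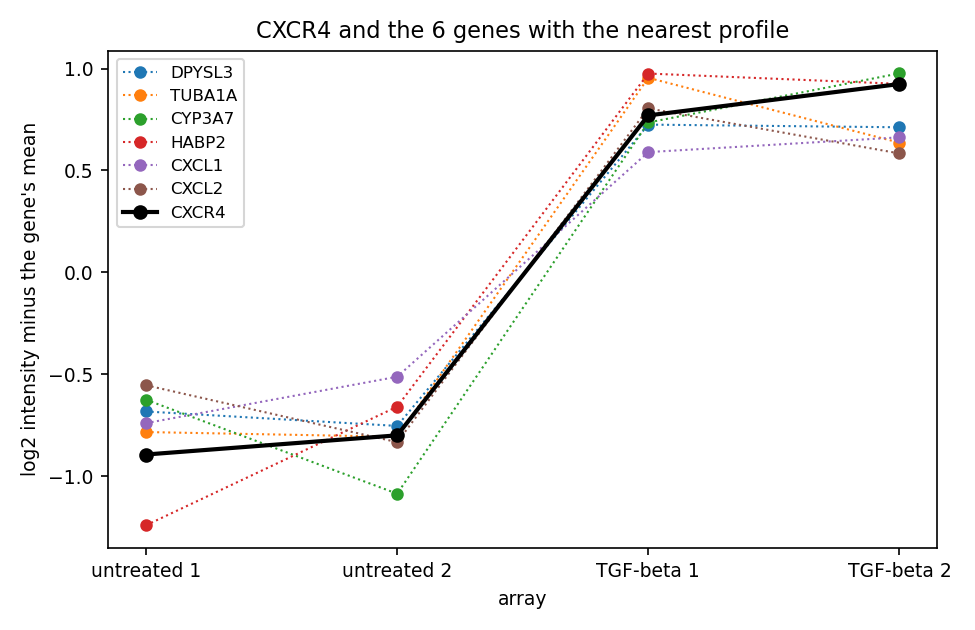
Log2 intensity minus the gene's own mean (vertical axis) on the 4 arrays (horizontal axis) for CXCR4 (black) and the 6 genes with the smallest distance to it (dotted, in colours). CXCR4 stands at -0.89 and -0.80 untreated and at 0.77 and 0.92 with TGF-beta, and the others follow with root mean square distances of 0.15 to 0.24.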

How the data were processed

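The authors deposited 1 linear intensity per probe set and array, made with the affy package, per the submitters' processing notes. The sources used here do not give its background correction, normalization or summary method. The quartiles were nearly equal between arrays, so no scaling was added. Values were put on the log2 scale without an offset, and folds are ratios of geometric means. Dim probe sets have little room to fall.

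Probe sets were named through the platform annotation, which can be old, and symbols updated by Entrez number through RefSeq (GRCh38.p14, 19707 of 19724 matched). Another 568 naming several genes and 1923 unnamed were left out. The brightest probe set stands for a gene.

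Groups were compared with limma 3.58.1 (R 4.3.3; lmFit, eBayes) over 12165 genes, and separately over 19724 probe sets for values of single probe sets, with Benjamini-Hochberg adjustment and a threshold of 0.05. Moderation gave 7.41 degrees of freedom per gene. The procedure was also run on data simulated with independent normal errors and spreads drawn from the fit itself. Such a run cannot show how the procedure behaves with technical replicates. The number of arrays limits the precision.

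The members and lists were chosen with earlier results of these data known. Genes named were all members, and the called genes of each list (at most 4) or else the one with the smallest p. Also named were 12 genes set in advance from those same lists, and the 6 nearest CXCR4. PTPRC and the hepatocyte, leukocyte and fibroblast markers were named after their values were seen. Plots used matplotlib 3.10.9.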

Additional observations from a re-analysis of the deposited data

How the results depend on the processing

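All 3 CXCR4 probe sets stayed positive under every alternative run, and 217028_at ranged from 1.51 (16 added before log2) to 1.77. Counts depended more on the processing. Quantile normalization gave 63 genes and 83 probe sets called, against 149 and 175. Adding 16 gave 74 probe sets and leaving out dim probe sets 85, without CXCL12 203666_at, which that filter removed. A trended prior gave 616 genes, 667 probe sets and 5 genes of the 8 lists (ADM, SDC1, CPN1, RGS3 and CFL1), against 0. The replicate numbers share no pattern (deviations of same-numbered arrays correlated at 0.01), and with them as a replicate block 1229 genes, 1107 probe sets and 13 genes of the lists were called. Leaving out 1 array gave 0 to 523 genes, 0 to 480 probe sets and 0 to 7 genes of the lists. Of the named genes, CD74 turned to -0.039 without untreated array 1 and to -0.037 without TGF-beta array 2 (range -0.039 to 0.26 over the left-out arrays), and CXCL11 to 0.013 without untreated array 2 (range -0.20 to 0.013). The causes were not tested. With no detection calls, the signal of CXCL12 and ACKR3 over background is not known.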
